A study of Homo sapiens with 12 samples.

Results

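The response of PA-1 cells to the ATAD2 inhibitor BAY-850 was described from 6 of the 12 RNA-seq libraries of a study of ATAD2 in ovarian cancer. PA-1 is a human line derived from an ovarian teratocarcinoma, a tumour of germ cell origin. BAY-850 keeps ATAD2, an ATPase of chromatin with a bromodomain, from binding acetylated histone. In the treated group 3 replicate cultures received 5 micromolar BAY-850 for 48 h, and in the control group 3 replicate cultures received DMSO, the solvent. Both groups were the same line, grown in DMEM with serum and with no low-oxygen condition named in the labels, so the results hold for 1 line, 1 dose and 1 time. The other 6 libraries hold the same pair of groups in SK-OV-3, an ovarian carcinoma line, and enter below only where a difference between the lines was tested. Of 26475 gene symbols in the table, 15212 passed the filter on low counts in PA-1 and were tested.

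Cells sense oxygen through the hypoxia-inducible factors (HIFs). In normal oxygen, prolyl hydroxylases of the EGLN family mark HIF1A and EPAS1 (HIF-2α) for destruction by the VHL ubiquitin ligase. When the hydroxylases stall, the stable α subunit pairs with ARNT and binds short DNA elements with the core RCGTG, turning on genes for glucose uptake, glycolysis, glycogen storage, angiogenesis, collagen cross-linking and the hydroxylases themselves. Most of this control acts on the HIF proteins, so HIF activity is usually read from the mRNA of its targets and not from that of its subunits. Tumour cells use the programme in poorly perfused tissue.

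The 6 libraries held between 34544505 and 45532273 counts and between 17425 and 18178 genes with a count. Ribosomal RNA took 9.91% to 14.2% of the counts in DMSO and 10.7% to 16.9% in BAY-850. One property of the libraries separated the groups. Against the mean of the 6, a gene's level fell with the GC content of its exons in each DMSO library (Spearman's rho across genes −0.136, −0.403 and −0.185) and rose with it in each BAY-850 library (0.0996, 0.235 and 0.405). Over 13810 protein-coding genes the fold change correlated with GC content at rho 0.388, as a description across genes, which are not independent replicates, and its part in the results was not tested beyond the fits with this trend removed, given below. RNA levels were read from bulk cultures, where fewer cells of a type and less RNA per cell cannot be told apart.

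The libraries matched a germ cell tumour line in some defining markers and not in others. Among the regulators of pluripotency, LIN28A, an RNA-binding protein, stood at 738 ± 53.3 CPM in DMSO, POU5F1 (OCT4) at 399 ± 36.0 and SOX2 at 219 ± 9.06 (mean ± SD, n = 3, in CPM, counts scaled to the TMM-normalized size of the library). NANOG reached 4.05 ± 0.316 CPM, while the co-receptor TDGF1 stood at a mean of 0.0646 CPM, GDF3 at 0.0094 CPM and FGF4 at 0. Of the 22 members of this list that passed the filter on low counts, of 25 listed, ZIC2 (log2 fold change 0.31) and PODXL (0.25) rose with BAY-850 and none fell, and the summed level of the list was 2746 to 2849 CPM in DMSO and 3122 to 3222 CPM in BAY-850. Blood cell genes were at or near 0, with the whole list of 10 summing to 1.44 to 2.69 CPM in DMSO and 1.69 to 2.16 CPM in BAY-850, and PTPRC, HBB and HBA1 had no count. Endothelial genes summed to 94.0 to 98.7 CPM in DMSO and 94.2 to 101 CPM in BAY-850, with no member called. The epithelial list (8 of 15 tested) summed to 114 to 120 CPM in DMSO and 133 to 151 CPM in BAY-850, and KRT19, a keratin, and ELF3, an epithelial transcription factor, rose. The fibroblast list (6 of 9 tested) summed to 524 to 636 CPM in DMSO and 666 to 714 CPM in BAY-850. COL1A1 was the 1 member that rose, and it alone stood at 417, 415 and 521 CPM in DMSO. The calls of COL1A1 and KRT19 were each lost in 7 of 19 alternative settings. The part of the epithelial and fibroblast genes in the other results was not tested.

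BAY-850 raised more genes than it lowered, and the large changes were nearly all increases. With edgeR's quasi-likelihood test and Benjamini-Hochberg adjustment, 707 of 15212 genes rose (4.65%) and 378 fell (2.48%) at an adjusted p under 0.05. Most changes were small, with a median log2 fold change of 0.342 among the genes that rose and −0.289 among those that fell. With a change of at least 1.5-fold added, 136 genes rose (0.894%) and 23 fell (0.151%). Of these 136 genes, 32 belonged to a list of 47 known HIF targets and 91 to none of the gene lists used here. Of the 23 that fell, 0 were HIF targets and 19 were in no list. The number of genes below 1 CPM was 9 among the 136 and 2 among the 23. The count of genes that fell depended on single libraries: it was 65 without DMSO replicate 2 and 71 without BAY-850 replicate 2, and the count that rose was 275 and 273 without them.

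**Figure D1:**
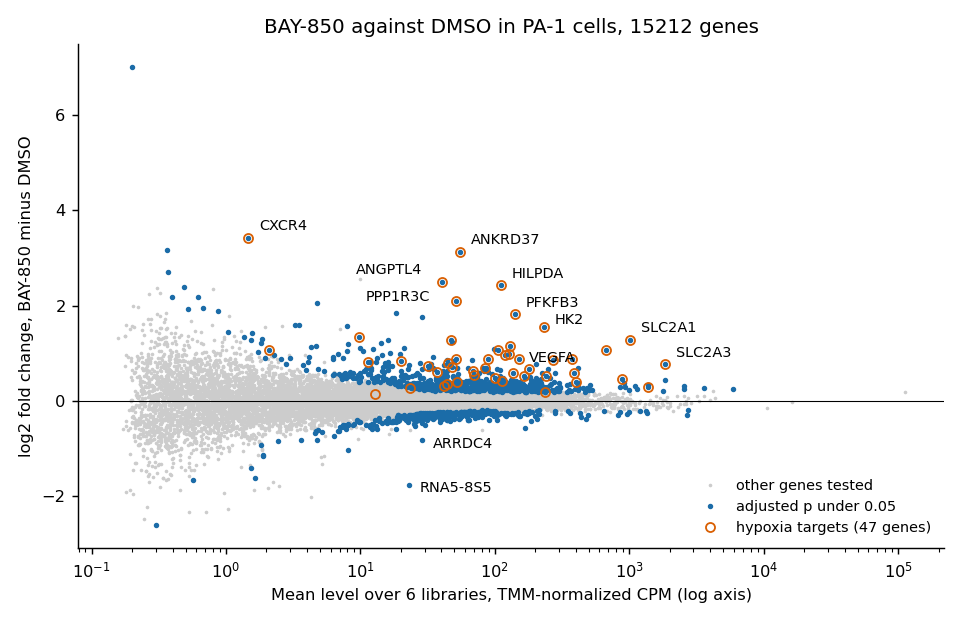
Log2 fold change (BAY-850 minus DMSO, vertical axis) against mean level in TMM-normalized CPM (horizontal log axis) for the 15212 genes tested, with genes at adjusted p under 0.05 in blue and the 47 hypoxia targets ringed in orange. The ringed genes all lie above 0, and the point at the top left is LGALS7, which had no count in DMSO, so that its plotted fold depends on the prior count and is not a measured size.

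CXCR4, the receptor for the chemokine CXCL12, ranked first by fitted fold change among genes of at least 1 CPM. Its level was 0.226, 0.238 and 0.277 CPM in the DMSO libraries and 2.53, 2.65 and 2.84 CPM in the BAY-850 libraries, a fitted log2 fold change of 3.42 (SE 0.327). The groups lay far apart, but the DMSO libraries sat near the limit of detection and the gene passed the filter through its BAY-850 libraries, so neither its rank nor the exact size of its change is firm. ANKRD37, an ankyrin-repeat protein, was well expressed on both sides, at 12.3, 10.8 and 10.7 CPM in DMSO and 100, 90.5 and 104 CPM in BAY-850. Its log2 fold change was 3.13 (SE 0.0807, edgeR adjusted p = 2.90e-12). Every treated library lay far above every control.

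Lipid handling followed. ANGPTL4, a secreted inhibitor of lipoprotein lipase, stood at 14.3, 11.5 and 10.8 CPM in DMSO and at 65.9, 70.4 and 70.8 CPM in BAY-850 (log2 fold change 2.50, SE 0.0915). HILPDA, which coats lipid droplets and blocks their lipolysis, went from 33.5, 35.4 and 36.0 CPM to 184, 193 and 188 CPM (2.43, SE 0.0598). In both genes the 3 replicates of a group lay close together and the groups did not overlap. PPP1R3C, which targets protein phosphatase 1 to glycogen and so favours its synthesis, went from 18.2, 19.6 and 20.3 CPM to 83.1, 84.7 and 82.2 CPM (2.1, SE 0.0657). PFKFB3, the kinase that makes the main allosteric activator of glycolysis, went from 63.1, 59.3 and 62.8 CPM to 230, 219 and 207 CPM (1.83, SE 0.0607). The adjusted p of edgeR's test was 1.75e-10 for ANGPTL4 and lower for the other 3 genes. GPR146, an orphan receptor linked to blood lipids, rose from 8.88, 6.95 and 8.19 CPM to 27.1, 29.3 and 30.1 CPM (1.85, SE 0.103).

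Other genes at the top are not in the list of hypoxia targets used below. NOG, the secreted BMP antagonist noggin, was at 12, 14.3 and 13 CPM in DMSO and at 46.8, 44.0 and 43.3 CPM in BAY-850 (log2 fold change 1.77, SE 0.0806, edgeR adjusted p = 2.59e-09). NPTX1, a neuronal pentraxin, was at 3.44, 4.76 and 3.68 CPM and then at 13.2, 12.1 and 10.3 CPM (1.57, SE 0.154). FUT11, a fucosyltransferase, was at 2.23, 1.73 and 1.63 CPM and then at 7.60, 9.07 and 6.46 CPM (2.05, SE 0.190). The treated libraries were above all controls in each of them, with a wider spread for FUT11. PLEKHA2 (1.6, SE 0.226) and ZBED6 (1.59, SE 0.291) closed the 12 largest increases at a few CPM, and ZBED6 lies inside an intron of ZC3H11A, so its counts may include reads of that gene.

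**Figure D2:**
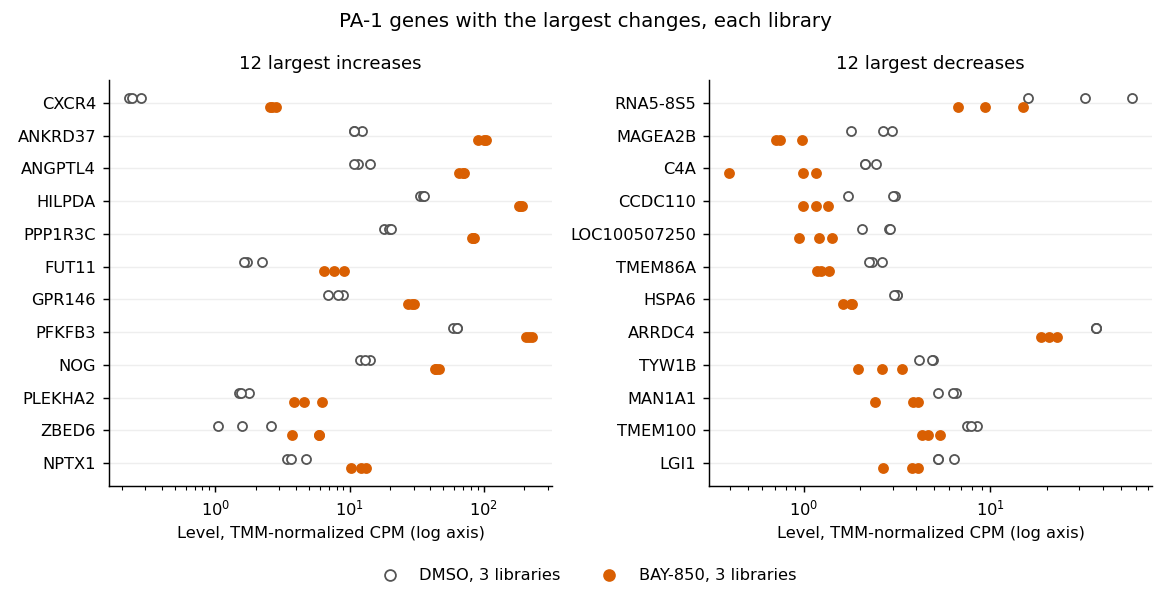
Level in each of the 6 libraries, in TMM-normalized CPM on a log axis, for the 12 genes with the largest increase (left) and the 12 with the largest decrease (right) among called genes of at least 1 CPM, with open circles for DMSO and filled circles for BAY-850. The groups do not overlap in any row, which the rule for naming required, the DMSO levels of CXCR4 lie near the limit of detection, and ARRDC4 is the 1 gene on the right that exceeds 10 CPM in every library.

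The known targets of HIF rose as a block. All 47 listed targets passed the filter, 45 rose at an adjusted p under 0.05 and 0 fell in edgeR's test (0 also at an unadjusted p under 0.05 and in DESeq2), against 4.65% and 2.48% of all genes tested. The median log2 fold change over the 47 was 0.804, against −0.002 over all genes, and it ranged from 0.749 to 0.824 among the 3 BAY-850 libraries. Every BAY-850 library was above every DMSO library in 47 of the 47, which was the case for 2195 of 15212 genes (14.4%). The summed level of the 47 was 7638 to 7822 CPM in DMSO and 13069 to 13230 CPM in BAY-850. RORA (0.14) and TMEM45A (0.27) were the 2 members that did not pass the threshold. The count stood between 41 and 46 over 19 alternative settings. The list was chosen with earlier results of these data known, and CXCR4 passed the filter through its BAY-850 libraries. The counts therefore describe the list and are no independent test of it.

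Within the list the size of the response was uneven. Besides the genes above, RAB20, a small GTPase, went from 28.6, 26.9 and 27.1 CPM to 65.2, 61.5 and 72.7 CPM (log2 fold change 1.27). NDRG1, a stress-responsive growth regulator, went from 275, 254 and 256 CPM to 501, 472 and 474 CPM (0.88). CA9, the carbonic anhydrase often used to stain hypoxic tumour, rose less, from 38.2, 36.6 and 40.5 CPM to 45.4, 49.7 and 53.4 CPM (0.37, SE 0.0727). PGK1, a glycolytic enzyme, and BNIP3L, a mitophagy receptor, rose by 0.30 and 0.20. The mitophagy receptor BNIP3 rose by 0.58 and the MYC antagonist MXI1 by 0.69. VEGFA, the main angiogenic ligand, was at 101, 102 and 113 CPM in DMSO and at 194, 196 and 194 CPM in BAY-850, a log2 fold change of 0.89.

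The sequence of a few promoters is shown because the elements bound by HIF have a short known core. The windows are the 250 bases before a RefSeq transcription start in GRCh38.p14, written 5′ to 3′ on the strand of the gene, with capitals at each ACGTG or GCGTG and at its reverse complement, CACGT or CACGC. Where 2 cores on opposite strands share letters, as in CACGTG, they are marked as 1 run and counted as 2. ANKRD37, PPP1R3C, PFKFB3 and LOX rose by 1.35 or more on the log2 scale, EGLN1 is the hydroxylase of the pathway, and ARRDC4 fell. ANKRD37 lies on the plus strand (chr4:185396591-185396840), PPP1R3C on the minus strand (chr10:91633072-91633321), PFKFB3 on the plus strand with the second of its listed starts shown (chr10:6202682-6202931), LOX on the minus strand with the first of its listed starts shown (chr5:122078260-122078509), EGLN1 on the minus strand (chr1:231422288-231422537) and ARRDC4 on the plus strand (chr15:97960453-97960702).
ANKRD37: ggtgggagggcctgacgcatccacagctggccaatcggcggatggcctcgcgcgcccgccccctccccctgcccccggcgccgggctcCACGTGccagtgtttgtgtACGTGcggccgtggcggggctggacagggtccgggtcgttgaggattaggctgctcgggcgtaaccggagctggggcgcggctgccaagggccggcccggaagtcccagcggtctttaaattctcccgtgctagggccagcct
PPP1R3C: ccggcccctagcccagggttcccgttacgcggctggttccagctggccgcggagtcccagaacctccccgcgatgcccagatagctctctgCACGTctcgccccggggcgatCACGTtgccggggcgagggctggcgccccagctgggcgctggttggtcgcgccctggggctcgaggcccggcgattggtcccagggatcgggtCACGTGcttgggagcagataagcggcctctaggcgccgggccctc
PFKFB3: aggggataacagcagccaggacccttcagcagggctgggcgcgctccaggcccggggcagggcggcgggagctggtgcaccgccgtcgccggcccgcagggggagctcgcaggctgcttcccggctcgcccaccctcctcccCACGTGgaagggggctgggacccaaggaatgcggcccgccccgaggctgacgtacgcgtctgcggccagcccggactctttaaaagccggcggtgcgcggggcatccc
LOX: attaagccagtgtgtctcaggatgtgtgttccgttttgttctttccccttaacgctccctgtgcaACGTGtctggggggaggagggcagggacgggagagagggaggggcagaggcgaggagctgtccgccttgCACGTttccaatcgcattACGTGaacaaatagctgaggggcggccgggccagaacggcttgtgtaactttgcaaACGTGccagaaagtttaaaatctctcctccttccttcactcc
EGLN1: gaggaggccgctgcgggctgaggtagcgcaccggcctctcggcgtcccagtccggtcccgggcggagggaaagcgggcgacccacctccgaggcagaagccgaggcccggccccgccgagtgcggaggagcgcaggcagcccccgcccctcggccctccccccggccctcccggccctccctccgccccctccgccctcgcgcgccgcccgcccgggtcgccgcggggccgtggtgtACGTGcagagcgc
ARRDC4: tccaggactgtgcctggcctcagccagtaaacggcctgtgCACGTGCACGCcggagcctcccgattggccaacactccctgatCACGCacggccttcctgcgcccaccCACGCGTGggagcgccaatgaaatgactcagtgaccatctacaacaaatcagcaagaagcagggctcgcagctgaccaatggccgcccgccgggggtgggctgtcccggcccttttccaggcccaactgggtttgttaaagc

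The ANKRD37 window held 3 cores, which began 162, 161 and 143 bases before the start, and the PPP1R3C and LOX windows held 4 each. The PFKFB3 window held an overlapping pair and the EGLN1 window a single core 13 bases before the start. The ARRDC4 window held 6, the most of those shown, although this gene fell. In windows from 250 bases before to 50 after a start, a core stood in 35 of 39 hypoxia targets with a promoter in the table (89.7%), in 80 of 104 genes that rose at least 1.5-fold (76.9%), in 12 of 17 that fell at least 1.5-fold (70.6%) and in 7654 of 11111 genes tested (68.9%). ACGTG alone stood in 66.7%, 46.2%, 35.3% and 31.6% of the same groups. Without the hypoxia targets, the genes that rose at least 1.5-fold held a core in 70.5% and ACGTG in 39.7%. A gene with several starts counted if any of its windows held a core, with a mean of 1.41 windows a gene among the hypoxia targets and 1.46 among all tested, and a core stood in 48.4% of all 35116 windows. The EGLN3 window, of a gene that rose, held none. The starts shown for PFKFB3 and LOX were those with the most cores, as the first PFKFB3 start had 1 core and the other LOX starts had 2 each. A match is a description of letters and does not show that a factor binds there.

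The sensors of the pathway changed in part. EGLN1 (PHD2), the main prolyl hydroxylase, was at 78.0, 80.5 and 82.3 CPM in DMSO and at 163, 156 and 155 CPM in BAY-850 (log2 fold change 0.97, SE 0.0558, edgeR adjusted p = 4.31e-08). EGLN3 (PHD3) went from 30.5, 28.4 and 29 CPM to 43.9, 44.1 and 46.0 CPM (0.61, SE 0.0654). Both hydroxylases rose and both also stand in the list of hypoxia targets. The mRNAs of the HIF subunits did not pass the threshold: HIF1A was at 276, 303 and 298 CPM in DMSO and 277, 278 and 266 CPM in BAY-850, and EPAS1 at 28.8, 30 and 32.4 CPM and 35.1, 35.5 and 33.3 CPM. Their log2 fold changes were −0.10 (SE 0.0554) and 0.19 (SE 0.0705). ARNT (0.01), VHL (0.06) and the asparaginyl hydroxylase HIF1AN (0.11) also missed it. ARNTL (BMAL1), a related protein of the circadian clock, fell from 52.5, 50.9 and 46.9 CPM to 38.8, 39.8 and 35.3 CPM (−0.40). Outside the hypoxia targets, then, 0 of the 10 other members tested rose and 1 fell.

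Most glycolytic enzymes and 3 glucose or lactate transporters rose. SLC2A1 (GLUT1), the basal glucose transporter, was at 602, 566 and 603 CPM in DMSO and at 1402, 1459 and 1464 CPM in BAY-850 (log2 fold change 1.29, SE 0.0502). SLC2A3 (GLUT3) was at 1350, 1376 and 1354 CPM and then at 2334, 2341 and 2282 CPM (0.77, SE 0.0447), although some of its reads could belong to its near copy SLC2A14, for which the change was 0.21 with an adjusted p of 0.310 in edgeR's test. The lactate exporter SLC16A3 (MCT4) rose by 0.68. These were the 3 transporters called of 11 tested (27.3%, against 4.65% of all genes that rose). HK2, the inducible hexokinase, went from 117, 119 and 116 CPM to 369, 345 and 316 CPM (1.55, SE 0.0627), and HK1, the constitutive one, rose by 0.46. In all, 15 of 18 glycolytic enzymes rose and 0 fell, with a median of 0.312, including GPI (0.69), ENO2 (0.67), ALDOC (0.56), LDHA (0.46) and GAPDH (0.25). The 15 that rose were 83.3% of the list. Of the 18 enzymes 3 are also hypoxia targets, and among the 15 others 12 rose. LDHB, the isoform that favours lactate oxidation, was at 1194, 1123 and 1048 CPM in DMSO and 1105, 1032 and 1122 CPM in BAY-850, groups that overlap, and did not pass the threshold (−0.05).

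Of the regulators of glycolysis 25% rose, against 4.65% of all genes tested. PFKFB3, PFKFB4 (log2 fold change 1.16) and PDK1 (0.48), the kinase that closes the entry of pyruvate into mitochondria, were the 3 called of 12 tested, and all 3 are hypoxia targets. Of the other 9, PDK3 (0.16) and MPC2 (−0.20) had groups that did not overlap but missed the threshold. Groups lay apart in that way in 14.4% of all genes for increases and in 13.1% for decreases. The tricarboxylic acid cycle showed a median of −0.004, with SDHB (−0.27), a subunit of succinate dehydrogenase, as the 1 member called of 18, while 4 were higher at an unadjusted p under 0.05 and 1 in DESeq2. Of 72 nuclear subunits of the respiratory chain 0 rose and 4 fell, NDUFS4, NDUFA5, NDUFV2 and UQCRB by 0.24 to 0.34 on the log2 scale, with a median of −0.100. The 4 that fell were 5.56%, against 2.48% of all genes tested, and with the GC trend removed 1 of the 72 fell. Genes of the mitochondrial genome were not analysed here.

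Storage of glycogen and lipid was represented at several steps. GYS1, glycogen synthase, was at 30.4, 28.7 and 34.3 CPM in DMSO and at 58.1, 58.0 and 53.7 CPM in BAY-850 (log2 fold change 0.86, SE 0.0745, edgeR adjusted p = 3.93e-06). The branching enzyme GBE1 rose by 0.66, the phosphoglucomutase PGM1 by 0.29 and the phosphorylases PYGM, PYGB and PYGL by 0.53, 0.23 and 0.20, so that genes of both synthesis and breakdown rose. In all 7 of 17 glycogen genes rose (41.2%, against 4.65% of all genes tested) and 0 fell. The count that fell was also 0 at an unadjusted p under 0.05 and in DESeq2. The count of 7 was 3 without DMSO replicate 2. Among 14 genes of lipid droplets the 3 that rose were ANGPTL4, HILPDA and PLIN2 (0.56), a droplet coat protein, and the median of that list was −0.010.

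Enzymes that modify collagen rose in part. LOX, the lysyl oxidase that cross-links collagen, went from 5.24, 5.29 and 5.84 CPM to 13.5, 14.3 and 13.9 CPM (log2 fold change 1.35, SE 0.115), and PLOD2, a lysyl hydroxylase, from 63.8, 74.1 and 66.1 CPM to 152, 144 and 132 CPM (1.07, SE 0.0712). The prolyl hydroxylases P4HA2 and P4HA1 rose by 0.55 and 0.39, PLOD1 by 0.42 and LOXL3 by 0.33. In all 7 of 13 rose (53.8%, against 4.65% of all genes tested) and 0 fell, and 4 of the 13 are hypoxia targets. Of the 9 others 3 rose.

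Of 23 histone demethylases, most of which use oxygen, iron and 2-oxoglutarate like the HIF hydroxylases, 9 rose and 0 fell. The share that rose was 39.1%, against 4.65% of all genes tested. KDM3A, which removes methyl groups from lysine 9 of histone H3, was at 80.4, 90.5 and 86.4 CPM in DMSO and at 172, 175 and 160 CPM in BAY-850 (log2 fold change 0.98, SE 0.0624). KDM2B rose by 0.53, KDM4B by 0.43, KDM5B by 0.42, KDM2A by 0.34 and JMJD6 by 0.32. Of the 20 demethylases that are not hypoxia targets 6 rose, and the median of these 20 was 0.092. The count of 9 was 4 when libraries were scaled by their totals alone.

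Secreted factors and their receptors gave 8 increases of 20 tested (40.0%, against 4.65% of all genes tested) and 0 decreases. The 8 include CXCR4, which passed the filter through its BAY-850 libraries. Beside CXCR4, ANGPTL4 and VEGFA, the stanniocalcins STC1 (log2 fold change 0.87) and STC2 (0.71), glycoprotein hormones, rose, as did the vasodilator peptide adrenomedullin (ADM, 0.67) and the ephrins EFNA3 (0.83) and EFNA1 (0.52). STC1 was at 45.9, 51.4 and 47 CPM in DMSO and at 88.1, 87.3 and 88.4 CPM in BAY-850. Of the 14 members outside the hypoxia targets 2 rose, STC1 and EFNA1.

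The α-arrestins, adaptors that steer receptors and glucose transporters to endosomes, moved in opposite directions. ARRDC4 was at 36.6, 37.0 and 36.8 CPM in DMSO and at 22.8, 20.6 and 18.7 CPM in BAY-850 (log2 fold change −0.83, SE 0.0793, edgeR adjusted p = 1.13e-05). ARRDC3 went from 64.8, 66.6 and 58.3 CPM to 137, 135 and 132 CPM (1.09, SE 0.0625) and ARRDC2 from 8.94, 8.71 and 7.94 CPM to 20.1, 19.2 and 20.2 CPM (1.22, SE 0.0983). The groups did not overlap in any of the 3. MLXIP (MondoA), a glucose-responsive transcription factor that drives ARRDC4 and TXNIP, rose by 0.38. TXNIP itself was at a mean of 0.251 CPM in DMSO and was not tested.

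**Figure D3:**
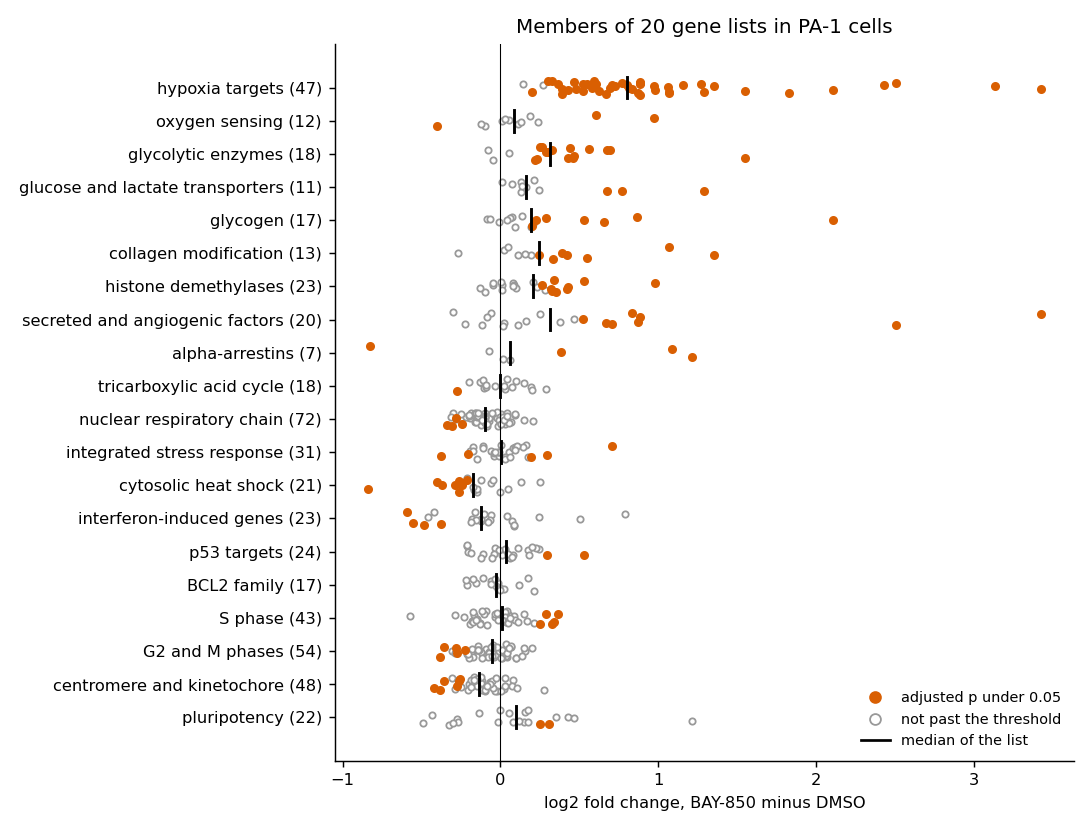
Log2 fold change (BAY-850 minus DMSO) of each tested member of 20 gene lists, with the number tested in parentheses, filled circles for adjusted p under 0.05, open circles for the rest and a bar at the median of the list. The hypoxia targets have their median at 0.804, while the median of the cytosolic heat shock list lies at −0.176 and no member of the BCL2 family passed the threshold.

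Other brakes and clocks linked to hypoxia also changed. DDIT4 (REDD1), an inhibitor of mTORC1, was at 472, 451 and 392 CPM in DMSO and at 985, 861 and 896 CPM in BAY-850 (log2 fold change 1.06), and its paralogue DDIT4L went from 19.7, 21.1 and 19.7 CPM to 35.6, 33.7 and 35.6 CPM (0.79). TSC2 (0.39) and NPRL3 (0.26) rose and SESN3 (−0.25) fell among the 17 brakes tested. Of these brakes 23.5% rose and 5.88% fell, against 4.65% and 2.48% of all genes tested. The clock repressors BHLHE40, at 186, 190 and 195 CPM and then 348, 348 and 347 CPM (0.87), and BHLHE41 (0.81) rose with PER1 (0.29), while ARNTL and NR1D2 (−0.27) fell. The calls of TSC2, NPRL3, SESN3, PER1 and NR1D2 were lost in 5, 10, 5, 7 and 8 of 19 alternative settings. TFRC, the transferrin receptor that brings iron into cells, went from 140, 158 and 150 CPM to 254, 269 and 244 CPM (0.77, SE 0.0618), and the endosomal iron reductase STEAP3 rose by 0.43. They were the 2 members called of 12 in the iron list.

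Genes of sterol and fatty acid synthesis changed in part. Of the cholesterol genes 10.7% rose and 7.14% fell, and of the fatty acid genes 21.4% rose. Over all genes tested 4.65% rose and 2.48% fell. INSIG2, a hypoxia target that holds back the SREBP factors, went from 63.4, 62.2 and 61.4 CPM to 115, 115 and 114 CPM (log2 fold change 0.88), and its relative INSIG1 went from 14.5, 12.4 and 13.0 CPM to 27.1, 26.3 and 25.1 CPM (0.97). Among 28 genes of cholesterol synthesis LSS (0.30) also rose and GGPS1 (−0.23) and SC5D (−0.22) fell, and the median was 0.010. The calls of LSS, GGPS1 and SC5D were lost in 6, 9 and 9 of 19 alternative settings. With the GC trend removed 0 of the 28 fell. Of 14 genes of fatty acid synthesis FASN (0.44), SCD (0.37) and FADS2 (0.35) rose and 0 fell.

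Cytosolic chaperones moved the other way. Of 21 genes of the heat shock list 0 rose and 9 fell in edgeR's test (1 was higher at an unadjusted p under 0.05 and 1 in DESeq2), with a median of −0.176, and every BAY-850 library was below every DMSO library in 11 of them, against 13.1% of all genes. HSP90AA1, the inducible HSP90, was at 3059, 3076 and 2773 CPM in DMSO and at 2519, 2386 and 2386 CPM in BAY-850 (log2 fold change −0.29, SE 0.0512). HSPH1, a nucleotide exchange factor of HSP70, was at 543, 568 and 504 CPM and then at 460, 408 and 380 CPM (−0.37, SE 0.0695). The co-chaperones DNAJB4 (−0.40), DNAJA1 (−0.26) and DNAJB1 (−0.25) fell as well. HSPA1A fell by 0.24 and HSPA6, at 3.16, 3.14 and 3.04 CPM against 1.63, 1.81 and 1.78 CPM, by 0.84, but both share long stretches of sequence with other HSP70 genes, and HSPA1B, the near copy of HSPA1A, stood at −0.13 with an adjusted p of 0.125 in edgeR's test. The 9 genes that fell were 42.9% of the list, against 2.48% of all genes tested. This count was 3 without DMSO replicate 1 and 10 with the GC trend removed.

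Interferon-induced genes showed 0 increases and 4 decreases in edgeR's test among the 23 tested of 30 listed, with 1 higher at an unadjusted p under 0.05 and 0 in DESeq2. IFIT2, an inhibitor of viral translation, was at 20.8, 24.3 and 21.8 CPM in DMSO and at 15.2, 15.1 and 14.1 CPM in BAY-850 (log2 fold change −0.59, SE 0.0908, edgeR adjusted p = 0.00121). OASL (−0.55), IFIT3 (−0.48) and IFIT1 (−0.38) were the others. The summed level of the list was 784 to 794 CPM in DMSO and 697 to 781 CPM in BAY-850. The 4 genes that fell were 17.4% of those tested, against 2.48% of all genes. This count was 1 without DMSO replicate 2. Of 31 genes of the integrated stress response GDF15 (0.29), SLC7A5 (0.19) and the hypoxia target STC2 rose, and DDIT3 (CHOP), a stress-induced transcription factor, fell from 237, 230 and 226 CPM to 172, 168 and 194 CPM (−0.38, SE 0.0616), with PPP1R15A (−0.20). Of the 31 genes 9.68% rose and 6.45% fell, against 4.65% and 2.48% of all genes tested. The calls of GDF15, SLC7A5 and PPP1R15A were lost in 11, 10 and 6 of 19 alternative settings. Among 17 immediate early genes FOSL2 (0.48) and FOSL1 (0.30) rose and FOS (−0.25) and EGR1 (−0.21) fell, 11.8% in each direction.

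The largest decreases were in genes of low level. RNA5-8S5, a ribosomal RNA gene with many copies, had the widest spread, at 32.3, 15.9 and 57.6 CPM in DMSO and 15, 6.69 and 9.37 CPM in BAY-850 (log2 fold change −1.76, SE 0.348), and reads of its copies cannot be assigned with certainty. MAGEA2B, a cancer-testis antigen with a near-identical copy, was at 1.78, 2.97 and 2.66 CPM and then at 0.711, 0.744 and 0.981 CPM (−1.61), and the complement gene C4A, which has the copy C4B, at 2.14, 2.14 and 2.44 CPM and then at 0.995, 0.397 and 1.16 CPM (−1.39). CCDC110 (−1.16), LOC100507250 (−1.12), TMEM86A (−0.92) and TYW1B (−0.81), which also has near copies, were below 5 CPM. TMEM100, a membrane protein downstream of BMP signals, was at 7.47, 8.45 and 7.86 CPM in DMSO and 5.38, 4.63 and 4.31 CPM in BAY-850 (−0.73, SE 0.143, edgeR adjusted p = 0.00740). MAN1A1, a Golgi mannosidase, was at 5.27, 6.52 and 6.31 CPM and then at 4.07, 3.84 and 2.40 CPM (−0.81, SE 0.199), and LGI1, a secreted neuronal protein, fell by 0.67. Many of these calls were not stable. Those of MAN1A1, TYW1B and LGI1 were lost in 6, 6 and 9 of 19 alternative settings, and those of TMEM86A, CCDC110, C4A and LOC100507250 in 9, 7, 6 and 5 of 18.

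Genes of the cell cycle changed by small amounts. The share called was 11.6% up among S phase genes, 9.26% down in G2 and M phases and 12.5% down in the kinetochore list. Over all genes tested 4.65% rose and 2.48% fell. Of 43 S phase genes 5 rose and 0 fell in edgeR's test (5 were lower at an unadjusted p under 0.05 and 1 in DESeq2). Those that rose were the helicase subunits MCM5 (log2 fold change 0.34), MCM2 (0.33) and MCM4 (0.29), UHRF1 (0.36), which maintains DNA methylation, and UNG (0.25), a DNA repair glycosylase, and the median was 0.011. Of 54 genes of G2 and M phases 0 rose and 5 fell in edgeR's test with a median of −0.056, with 2 higher at an unadjusted p under 0.05 and 2 in DESeq2. Of 48 genes of the centromere and kinetochore 0 rose and 6 fell with a median of −0.133, with 1 higher at an unadjusted p under 0.05. NDC80 (−0.39) and NUF2 (−0.36), partners in the complex that holds microtubules, TTK (−0.28), a checkpoint kinase, and CENPC (−0.42), which anchors the inner kinetochore, were among those that fell. These genes are poor in GC, with a median of 41.6% over the kinetochore list against 48.8% over all genes, and with the GC trend removed 2 of the 48 and 1 of the 54 fell, with medians of −0.082 and −0.022.

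The mRNA of the drug's target and those of most cycle regulators examined did not pass the threshold. ATAD2 was at 40.5, 40.5 and 40.2 CPM in DMSO and at 37.6, 36.2 and 33.1 CPM in BAY-850, which did not pass the threshold (log2 fold change −0.18, SE 0.0678, edgeR adjusted p = 0.118). CDK1, the mitotic kinase, fell from 143, 147 and 141 CPM to 114, 119 and 122 CPM (−0.28, edgeR adjusted p = 0.00727). Its call was lost in 3 of 19 alternative settings, and its log2 fold change ranged from −0.319 to −0.157 over the 19. CENPE, a kinetochore motor, stood at −0.31 and narrowly missed the threshold (edgeR adjusted p = 0.0508). Its mean was 39.8 CPM in DMSO and 32.2 CPM in BAY-850. Every BAY-850 library was below every DMSO library, as in 13.1% of all genes tested. CCNE2, at 1 to 2 CPM, stood at −0.57 (0.271), CCNB1 at −0.13 (0.212) and MYC at 0.13 (0.223). E2F1 stood at −0.02 (0.939) and CDKN1A (p21) at 0.03 (0.923), with the adjusted p of edgeR's test in parentheses throughout. The groups also did not overlap in CCNE2, which was lower, and in MYC, which was higher. Every BAY-850 library was above every DMSO library in 14.4% of all genes tested. The groups overlapped in CCNB1, E2F1 and CDKN1A. Of 24 p53 targets 2 rose in edgeR's test, PHLDA3 (0.53) and GDF15, and 0 fell, with 3 lower at an unadjusted p under 0.05 and 1 in DESeq2. With the GC trend removed 0 rose and 2 fell, and PHLDA3 and GDF15 lost their calls in 7 and 11 of 19 alternative settings. Of 17 genes of the BCL2 family 0 passed the threshold in edgeR's test and 0 in DESeq2, with 2 higher and 2 lower at an unadjusted p under 0.05. Of 33 bromodomain genes 8 rose (24.2%, against 4.65% of all genes tested) and 0 fell. SMARCA4 (0.29), BRD3 (0.27) and CREBBP (0.30) were among the 8. This count was 0 when libraries were scaled by their totals alone. With the GC trend removed 2 rose, and the median was 0.096 against 0.075.

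Genes of protein synthesis and turnover showed few calls. Of 82 cytosolic ribosomal proteins 0 rose and 3 fell (RPS24, RPS27A and RPL21, each with many pseudogenes that could take or add reads), a share near that of all genes, and the median was −0.098. The count was 22 without BAY-850 replicate 3, and the median ran from −0.18 to 0.0279 among the 3 BAY-850 libraries. Of 77 mitochondrial ribosomal proteins 0 rose and 5 fell in edgeR's test with a median of −0.112, while 1 was called higher in DESeq2. The 5 that fell were 6.49%, against 2.48% of all genes tested. With the GC trend removed 0 fell and the median was −0.106. Of 36 proteasome subunits 1 fell, and their median ran from −0.115 to 0.0119 among the BAY-850 libraries. Among 21 ER chaperones CANX (0.20) was called in edgeR's test, a call lost in 8 of 19 alternative settings, and DESeq2 called 1 lower. The count of ER chaperones that rose was 4 without BAY-850 replicate 3. Of 18 YAP and SRF targets ANKRD1 (−0.33) fell, and of 16 cadherins and regulators of mesenchymal transition FN1 (0.28) rose. Of 25 replication-dependent histone genes tested 0 passed the threshold in edgeR's test, with 1 higher and 2 lower at an unadjusted p under 0.05 and 1 called higher in DESeq2. Among 17 germ layer markers the 2 called were CXCR4 and HAND1. HAND1 was at 0.0564, 0.282 and 0.111 CPM in DMSO and at 1.21, 0.570 and 0.697 CPM in BAY-850, near the limit of detection, and lost its call in 6 of 17 alternative settings. Both passed the filter through the group where they are high, so their count says nothing about the list.

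**Figure D4:**
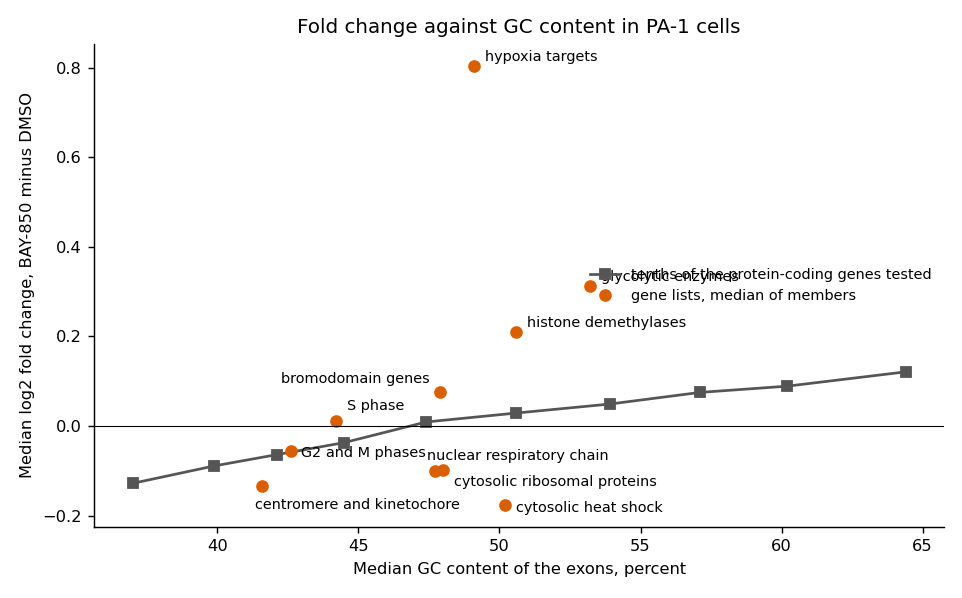
Median log2 fold change (BAY-850 minus DMSO) against median GC content of the exons, for 10 equal groups of the 13810 protein-coding genes tested (squares) and for gene lists (circles). The groups run from −0.128 at 37% GC to 0.121 at 64.4% GC, the centromere and kinetochore list lies below that line at −0.133 and 41.6% GC, and the hypoxia targets lie far above it at 49.1% GC.

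The changes with BAY-850 were compared between the lines by an interaction term in a fit of all 12 libraries, which asked whether the PA-1 response was above or below that of SK-OV-3. Over 16830 genes the PA-1 response was above in 1307 (7.77%) and below in 1128 (6.7%) at an adjusted p under 0.05 in edgeR's quasi-likelihood test. Among the 47 hypoxia targets it was above in 25 and below in 7. Their median log2 fold change was 0.80 in PA-1 and 0.39 in SK-OV-3, and 45 rose in PA-1 and 29 in SK-OV-3. The genes above included ANKRD37 (3.13 in PA-1 and 0.26 in SK-OV-3), HILPDA (2.43 and 0.13), PFKFB3 (1.83 and 0.17), HK2 (1.55 and 0.35), SLC2A1 (1.29 and 0.06), EGLN1 (0.97 and 0.16) and LDHA (0.46 and 0.00). The genes below were CA9 (0.37 and 1.34), SLC2A3 (0.77 and 1.94), STC2 (0.71 and 1.58), DDIT4 (1.06 and 1.61), VEGFA (0.89 and 1.19), BNIP3 (0.58 and 0.93) and BNIP3L (0.20 and 0.58). For NDRG1, PFKFB4, PDK1, PGK1, EGLN3 and FAM162A the interaction did not pass the threshold.

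**Figure D5:**
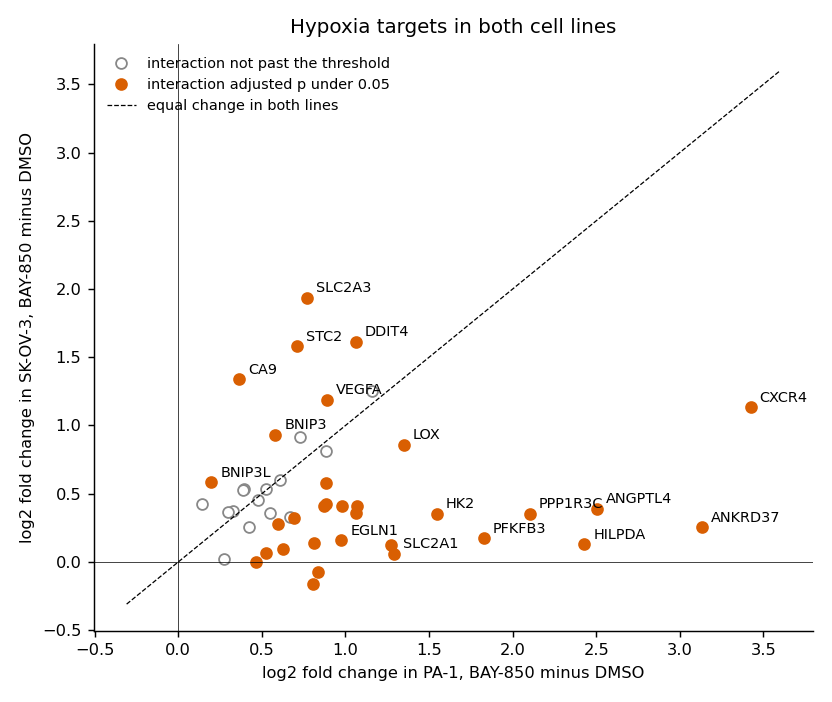
Log2 fold change with BAY-850 in PA-1 (horizontal axis) and in SK-OV-3 (vertical axis) for the 47 hypoxia targets, filled where the interaction with the line had an adjusted p under 0.05, with a dashed line at equal change. Of the filled genes 25 lie below the dashed line, among them ANKRD37, ANGPTL4 and HILPDA, and 7 above it, among them CA9, SLC2A3 and STC2.

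The lines also differed in other lists. For the interferon-induced genes the PA-1 response was below that of SK-OV-3 in 21 of 23 (medians −0.12 and 1.08), and for the integrated stress response in 21 of 30 (0.00 and 0.58), with 1 above. For cholesterol synthesis it was below in 12 of 28 (0.01 and 0.35) and for mitophagy and autophagy in 10 of 21 (0.04 and 0.29). For S phase genes it was above in 24 of 43 (0.01 and −0.49), and for G2 and M genes in 17 of 54 (−0.06 and −0.26). Among the glycogen genes the PA-1 response was above in 6 of 17, and among the collagen enzymes in 6 of 13. The lines were grown in different media, so the line and its medium cannot be told apart.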

How the data were processed

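The authors aligned and counted reads with tools that the submitters' processing notes name as Bowtie2 2.1.0 and RSEM 1.2.15, with genome build hg38. The deposited table holds RSEM expected counts per gene symbol, not scaled between libraries, and 0 of its columns were left unmatched to a sample. Poly(A) selection and ribosomal RNA depletion are both named for these libraries, so the preparation is uncertain. The annotation and the strand setting of the counting are not given in the sources used here.

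Expected counts were rounded to whole numbers (11.0% to 12.4% of values were not whole), and genes were kept by edgeR's filterByExpr with a minimum count of 10. Levels are CPM after TMM scaling. The test was edgeR 4.0.16's quasi-likelihood test in R 4.3.3 on the 6 PA-1 libraries, with Benjamini-Hochberg adjustment over all genes, a threshold of 0.05 and, where stated, a fold of at least 1.5. Fold changes are edgeR's fitted values at its default prior count. A prior count of 2 entered only the log2 CPM used for the GC and length trends and the comparison of replicates. The difference between lines was an interaction term over 12 libraries. Alternatives were DESeq2 1.42.0, other scalings, filters and fits, removal of a loess trend with GC content or length (span 0.5) and leaving out each library. The scripts were tested on simulated data. Replicates differed beyond counting noise (chi-square per degree of freedom 8.96 to 52.6), so no library was a copy of another. Same-numbered replicates did not deviate together (r = −0.0117, 0.042 and −0.0417), so no block was used. Replicates are described as biological, and the tests set the difference between groups against the variation between these samples.

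The comparison, gene lists and tests were chosen with earlier results of these data known. Named genes are the 12 largest increases and 12 largest decreases among called genes of at least 1 CPM whose groups do not overlap, up to 6 called members of each list per direction and its defining members, ATAD2 with CENPE, CDK1, CCNE2, CCNB1, E2F1, MYC and CDKN1A, and the 3 genes per direction with the smallest interaction p. Symbols were matched to gene models by name (24657 of 26475), and promoters are from RefSeq GRCh38.p14.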

Additional observations from a re-analysis of the deposited data

Results flagged for a closer look

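The response of 21 of 36 main named genes differed between PA-1 and SK-OV-3 by the interaction term of edgeR's quasi-likelihood test, adjusted over all genes. Over all genes the PA-1 response was above in 7.77% and below in 6.7%. The 36 include the 3 genes per direction picked by the smallest interaction p and the largest PA-1 changes. Their share was thus partly set by the choice and is no test of these genes as a group. The values below are the PA-1 log2 fold change minus that of SK-OV-3, with the adjusted p in parentheses. It was positive for ANKRD37 at 2.89 (6.16e-08), NOG at 2.54 (0.0042), HILPDA at 2.32 (6.43e-08), CXCR4 at 2.31 (0.0128), ZBED6 at 2.21 (0.0258), ANGPTL4 at 2.13 (6.16e-08), FUT11 at 2.01 (4.15e-05), FOS at 1.86 (1.28e-09), PPP1R3C at 1.75 (0.00026), PFKFB3 at 1.66 (3.53e-09), PLEKHA2 at 1.41 (0.000281), SLC2A1 at 1.24 (8.3e-09), NPTX1 at 1.03 (0.0435), E2F1 at 0.66 (0.00096) and CCNB1 at 0.32 (0.0102). It was negative for TMEM86A at −2.0 (0.00115), IFIT1 at −1.67 (4.61e-08), DDIT3 at −1.56 (8.3e-09), TYW1B at −1.47 (0.0173), ARRDC4 at −0.95 (0.000152) and CDKN1A at −0.61 (0.0448). DDIT3, IFIT1 and TMEM86A passed the threshold in both lines with opposite signs, at −0.38 and 1.19, −0.38 and 1.31, and −0.92 and 1.08. NOG, ZBED6, ARRDC4 and TYW1B had fold changes of opposite sign but did not pass the threshold in SK-OV-3. FOS fell in both lines, at −0.25 in PA-1 and −2.1 in SK-OV-3. E2F1, CCNB1 and CDKN1A did not pass the threshold in PA-1 itself. Groups of 3 libraries were too small to test single libraries as outliers.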

How the results depend on the processing

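The hypoxia response kept its direction under all 19 alternatives, with a median log2 fold change of 0.755 (length trend removed) to 0.812 over the 47 targets. Only the value with the length trend removed lay further from the main 0.804 than the SD among the BAY-850 libraries (0.0402). The totals moved. The count of genes that rose (707) was 1011 with DESeq2, 971 with the likelihood ratio test and 1038 with no filter. It was 235 with library size only, 469 with all 12 libraries in one fit and 419 with the GC trend removed. It was 319 with the replicate block and the GC trend removed, and 273 to 810 when 1 library was left out. The count that fell (378) was 726 with DESeq2, 610 with the likelihood ratio test, 231 with library size only, 588 with no filter, 214 with all 12 libraries, 144 with the GC trend removed, 572 with the length trend removed, 86 with the replicate block and the GC trend removed, and 65 to 418 when 1 library was left out. The 136 genes that rose at least 1.5-fold were 173 with the likelihood ratio test and 184 with no filter. They were 100 with the replicate block and the GC trend removed, and 103 to 166 when 1 library was left out. The 23 that fell were 50 with the likelihood ratio test, 64 with no filter, 15 with the GC trend removed, 12 with the replicate block and the GC trend removed, and 11 to 31 when 1 library was left out. The replicate block alone gave 624, 307, 135 and 26. The share of promoters among genes that rose at least 1.5-fold was 46.2% with ACGTG alone against 76.9% with either core. Among the named genes 2 changed sign, neither called: E2F1 went to 0.021 with the length trend removed and ranged from −0.05 to 0.038 when 1 library was left out, positive without DMSO replicate 1 (0.038) and BAY-850 replicate 1 (0.007). CDKN1A went to −0.004 with library size only and to −0.054 with the GC trend removed, with or without the block, and ranged from −0.090 to 0.113, negative without DMSO replicate 3 (−0.064) and BAY-850 replicate 2 (−0.090). The cause of these moves was not tested. A single dose, a single time and 3 cultures a group limit what small changes can show.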

Other observations

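Developmental regulators and other signalling genes stood among the increases outside the lists, chosen here after their values were seen. CDKN1C (p57), an inhibitor of cyclin-dependent kinases, was at 31.1, 28.4 and 26.0 CPM in DMSO and at 63.0, 65.5 and 73.1 CPM in BAY-850, a log2 fold change of 1.24 (SE 0.0787, edgeR adjusted p = 1.19e-07). The homeobox gene BARX1 was at 10.8, 8.12 and 9.13 CPM and then at 20.3, 20.8 and 26.9 CPM (1.28, SE 0.131). The groups did not overlap in either gene. TRIM71 (1.09), a repressor of mRNAs in stem cells, FOXD1 (0.93), a forkhead factor, TET1 (0.69), which oxidises methylated cytosine, CDON (0.69), a hedgehog co-receptor, SMAD7 (0.67), an inhibitor of TGF-beta signals, and NOTCH1 (0.59) rose as well.

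Among the decreases outside the lists, also chosen after their values were seen, PPARGC1A, a coactivator of mitochondrial genes, was at 9.39, 7.97 and 8.97 CPM in DMSO and at 5.57, 6.67 and 6.17 CPM in BAY-850 (log2 fold change −0.52, edgeR adjusted p = 0.0324). The kinase JAK2 was at 13.6, 13.9 and 14.2 CPM and then at 11.1, 10.3 and 8.05 CPM (−0.50). The vesicular amine transporter SLC18A2 (−0.53), the long RNA SOX2-OT (−0.51), which overlaps SOX2, and EYA1 (−0.49), a developmental phosphatase, also fell.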
